A study of Mus musculus with 18 samples.

Results

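The interleukin 1 system was followed in mouse blood through 8 genes: the ligands Il1a, Il1b and Il18, the receptor chains Il1r1, Il1rap and Il18rap, and the inhibitors Il1rn and Il1r2. The members were the non-control probes of the array whose gene name in the scanner files was one of these symbols. They came to 16 probes of 41174 and 8 genes of 20830 named ones. Probes entered the test when the scanner software called them well above background on 5 or more of the 18 arrays. That left 9 of the 16 probes and 7 of the 8 genes, out of 13541 genes tested. Il1a, with both probes well above background on 0 of 18 arrays, was not tested.

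The study asks how whole blood responds to ionizing radiation. All mice were C57BL/6N males, 8 to 12 weeks old, an inbred strain with no allele or transgene named in the labels. They comprised 7 sham-treated mice (0 Gy), 5 given 2 Gy and 6 given 8 Gy of gamma rays from a cesium source, and blood was taken from the heart 6 hours later. Each blood sample is counted here as 1 mouse. The series' design text calls the samples biologically distinct but does not state that each is 1 mouse. RNA was extracted with the PAXgene kit in 2 sham-treated mice and 1 mouse given 2 Gy, with the RiboPure kit in all others, depleted of globin RNA, labelled with Cy3 and hybridised to 1 Agilent array per blood sample. The samples are whole blood, so each value mixes all circulating cells.

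Interleukin 1 alpha and beta are inflammatory cytokines that act through the receptor Il1r1 together with the accessory chain Il1rap, which recruits the adaptor Myd88. A pair of inhibitors holds the system in check: Il1rn, a soluble antagonist that occupies Il1r1 without signalling, and Il1r2, a decoy receptor that binds the ligand but lacks a signalling domain and is made above all by neutrophils. Interleukin 18 is a related cytokine that is cut to its active form by caspase 1, as is interleukin 1 beta, and signals through Il18r1 and Il18rap, and it is neutralised in solution by Il18bp.

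The probes of the genes on which the results turn are given in lower case, 5′ to 3′, with positions from the array files on build mm7. Both Il1r2 probes are shown because they measured the decoy independently, the dimmer of the 2 Il1rn probes because it was called well above background at 8 Gy alone, and those of Il18rap and Il18 because the 2 genes differed in outcome. The first Il1r2 probe lies at chr1:40362239-40362298 on the plus strand, and the second has its ends at chr1:40351196-40354143, a span longer than the probe.
Il1r2, first probe: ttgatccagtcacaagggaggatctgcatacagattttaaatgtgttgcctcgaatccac
Il1r2, second probe: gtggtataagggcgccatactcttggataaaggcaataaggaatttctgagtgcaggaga
Il1rn, dimmer probe (chr2:24354826-24355846, plus strand): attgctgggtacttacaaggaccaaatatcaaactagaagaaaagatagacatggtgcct
Il18rap (chr1:40789200-40789259, plus strand): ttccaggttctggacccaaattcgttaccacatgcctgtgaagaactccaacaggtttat
Il18 (chr9:50557947-50560075, plus strand): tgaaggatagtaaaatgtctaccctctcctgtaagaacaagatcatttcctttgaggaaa

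Levels are log2 processed signals minus the array's 75th percentile, so 0 is that percentile and 1 unit is a doubling. They compare arrays for 1 probe, not probes with each other. The 75th percentile itself was an intensity of 138 to 425 at 0 Gy, 46.4 to 186 at 2 Gy and 58.4 to 232 at 8 Gy. Of the marker lists for blood cells, all 19 measured mature neutrophil markers, all 15 monocyte markers, 18 of 20 T cell markers and 9 of 16 B cell markers were well above background on all 18 arrays, and the neutrophil precursor gene Elane was so on 0 arrays. The array labelled 0 Gy replicate 5 went against its label: its score of 12 p53 target genes was 1.89, against -0.82 to -0.0046 on the other 0 Gy arrays and 1.26 to 2.46 at 2 Gy. Its level of Cdkn1a, the cell cycle inhibitor induced by p53, was 1.28, and the highest of the other 0 Gy arrays reached -1.46. The arrays of 0 Gy replicate 4 and 2 Gy replicate 3 agreed least with the rest, with a median correlation of 0.833 and 0.846 with the other arrays over 13541 genes, where all others had 0.908 to 0.953.

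At 8 Gy, 5 of the 7 genes tested rose against 0 Gy, 0 fell and 2 did not pass. Of all 13541 genes, 12% passed (limma, adjusted p under 0.05), 7.63% higher and 4.4% lower. The decoy receptor Il1r2 rose most, 16.6-fold, then the antagonist Il1rn, 6.36-fold, the ligand Il1b, 4.62-fold, the accessory chain Il1rap, 4.29-fold, and Il18rap, 2.67-fold. The median log2 change of the 7 genes was 2.10, against 0.08 over all genes. In whole blood, fewer cells of a type and less RNA per cell cannot be told apart, and the same holds for more of either.

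**Figure D1:**
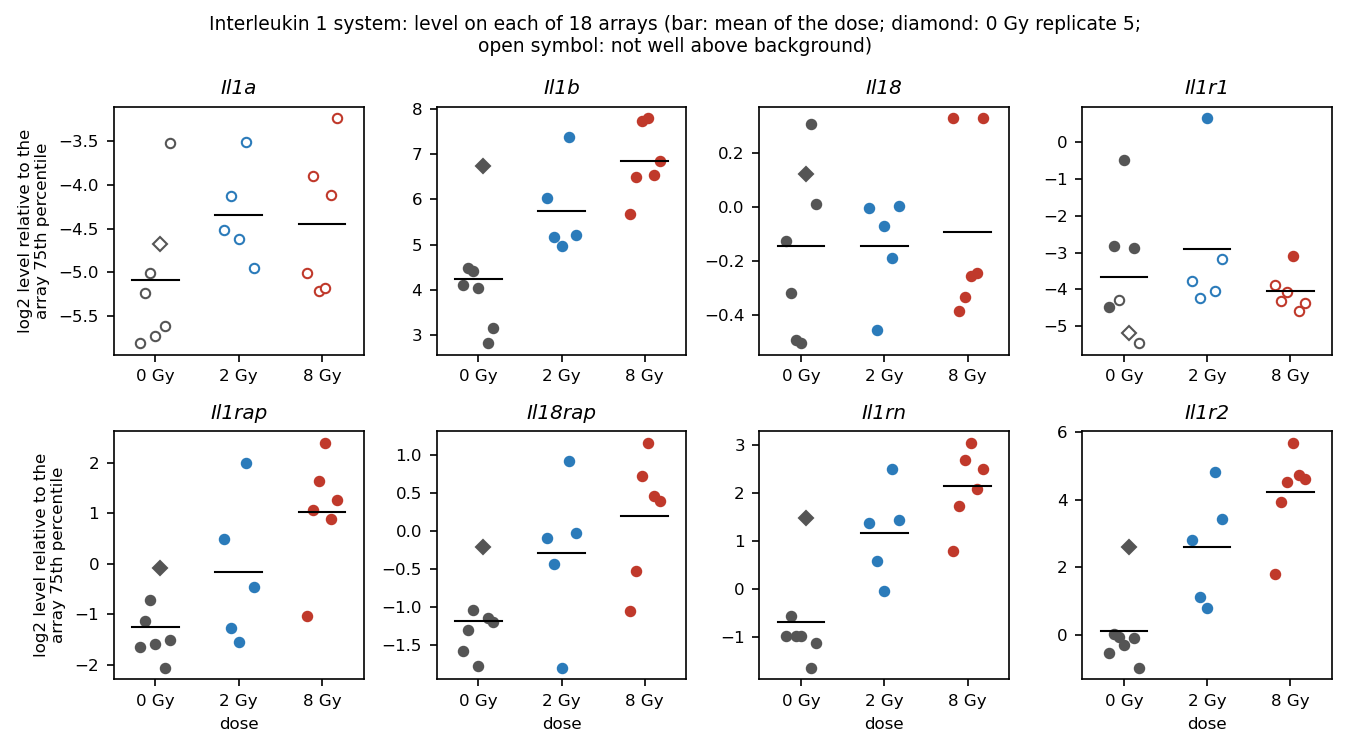
Level of each of the 8 genes (log2, relative to the array's 75th percentile) on every array, by dose, with the mean of each dose as a bar, open symbols for arrays where the probe was not well above background and a diamond for the array labelled 0 Gy replicate 5. For Il1b, Il1rn and Il1r2 that one 0 Gy array lies inside the range of the irradiated mice and the other 6 lie below it, while Il18 stayed between -0.51 and 0.33.

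Among the ligands, Il1b was measured by 1 probe printed at 10 spots (chromosome 2, 129105464 to 129105523, minus strand). Its levels were 2.82, 4.10 and 6.74 (lowest, median and highest) at 0 Gy, 6.02, 5.16, 4.98, 7.38 and 5.21 in the 5 mice at 2 Gy, and 5.68, 6.69 and 7.79 at 8 Gy. The highest 0 Gy value was that of replicate 5, and only this array of the 0 Gy group overlapped with the irradiated mice: the next 0 Gy array reached 4.47. The 2 Gy and 8 Gy arrays overlapped with each other. The fitted change at 8 Gy against 0 Gy was 2.21 ± 0.52 (SE, adjusted p = 0.0210). The 10 spots of an array differed by a median SD of 0.06, against an SD between mice of 0.80 at 8 Gy and 1.26 at 0 Gy. On no array were most of the 10 spots of the probe flagged as saturated, and its intensities were 1332 to 51183. The Il1b call was lost when 0 Gy replicate 1 was left out (2.09, adjusted p = 0.0602), likewise for 0 Gy replicate 2 (2.17, adjusted p = 0.0516) and 8 Gy replicate 4 (2.02, adjusted p = 0.0506).

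Il18, also printed at 10 spots, was flat. Its level was -0.51 to 0.31 (median -0.13) at 0 Gy, -0.46 to 0.00 (median -0.07) at 2 Gy and -0.39 to 0.33 (median -0.25) at 8 Gy, well above background on every array. The change at 8 Gy was 0.15 ± 0.18 (adjusted p = 0.610), with a 95% interval of 0.845 to 1.45-fold. Thus a rise of Il18 of the size seen for Il1b lies outside its interval. Il1a was at background: its better probe had intensities of 3.27 to 19.3 across the 18 arrays, and no level is given for it.

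Of the receptor chains, Il1rap rose at 8 Gy by 2.10 ± 0.59 (adjusted p = 0.0372) on the probe that stood for the gene, at chromosome 16, 26378192 to 26378251, plus strand. Its level was -2.05, -1.50 and -0.09 (lowest, median and highest) at 0 Gy, 0.49, -1.27, -1.54, 1.99 and -0.45 at 2 Gy, and -1.04, 1.16 and 2.39 at 8 Gy. All 8 Gy arrays but replicate 1 lay above every 0 Gy array. The call depended on single arrays and was lost in 11 of 18 fits that left out 1 array (0 Gy replicates 1, 2, 3, 4 and 7, 2 Gy replicate 5, 8 Gy replicates 2 to 6), with changes of 1.83 to 2.18 and adjusted p of 0.0506 to 0.0865.

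The accessory chain is made in a membrane form and, from a shorter transcript, in a soluble one, and the array holds 5 probes named Il1rap. Of these, 3 were well above background on only 1 to 3 arrays each. The second tested probe, at chromosome 16, 26362501 to 26362560, plus strand, is described in the files as transcript variant 2, and its change at 8 Gy was 0.49 ± 0.78 (adjusted p = 0.701 over 22033 probes, of which 9.98% passed), not past the threshold. On this probe 0 Gy replicate 4 and 2 Gy replicate 3 stood far above the rest, at 1.89 and 2.05, while the other 0 Gy arrays had -3.46 to -1.73. On the first probe 0 Gy replicate 4 read -1.58, within the range of its group, and 2 Gy replicate 3 was the lowest of its group at -1.54. With both left out, a choice made after seeing the data, the second probe changed by 1.30 ± 0.52 (adjusted p = 0.103 over probes) and the first by 1.93 ± 0.59 (0.0499 over probes). The 2 Il1r2 probes, by contrast, gave 4.05 ± 0.75 and 4.18 ± 0.71.

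**Figure D2:**
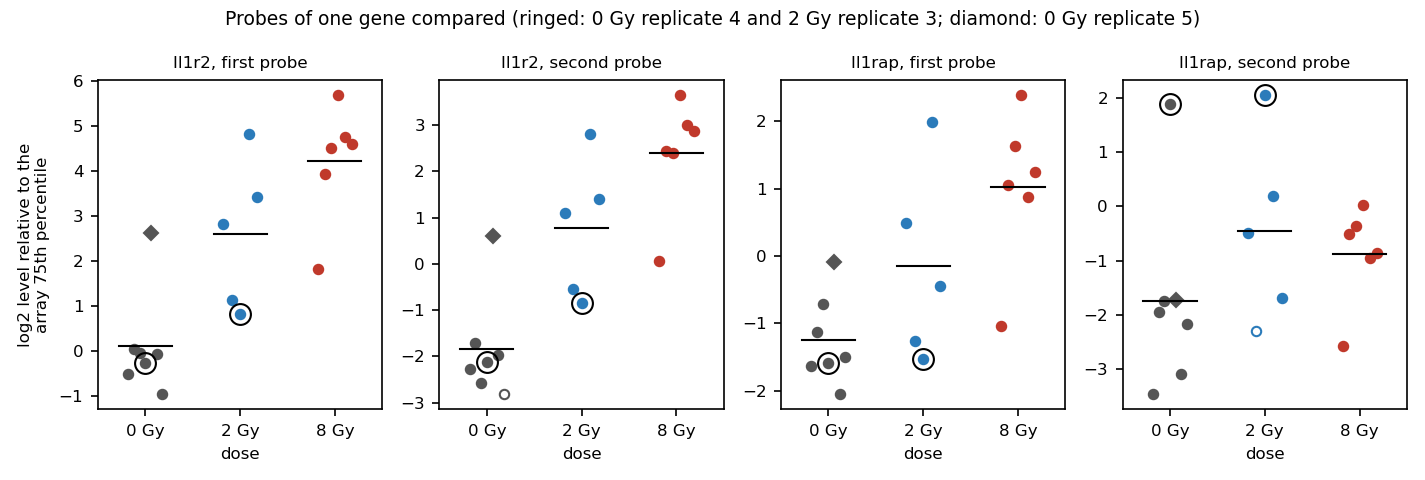
Levels (log2, relative to the array's 75th percentile) by dose for both Il1r2 probes and both tested Il1rap probes, 1 point per array, with bars at the dose means, open symbols where a probe was not well above background, rings around 0 Gy replicate 4 and 2 Gy replicate 3, and a diamond for the array labelled 0 Gy replicate 5. The Il1r2 probes show one pattern, whereas the second Il1rap probe has the 2 ringed arrays on top, at 1.89 and 2.05.

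The signalling receptor itself, Il1r1, was near background in blood. Its probe (chromosome 1, 40555675 to 40555734, plus strand) cleared background on 4 of the 7 arrays of sham-treated mice, 1 of 5 after 2 Gy and 1 of 6 after 8 Gy. The level was -4.58 to -3.10 at 8 Gy and -5.47 to -0.48 at 0 Gy, and the change of -0.56 ± 0.85 did not pass (adjusted p = 0.682). The highest values were -0.48 on 0 Gy replicate 4 and 0.65 on 2 Gy replicate 3, the same 2 arrays as for the second Il1rap probe. The sign of the change was not settled: it was 0.10 ± 0.77 without 0 Gy replicate 4, 0.24 ± 0.47 without both, and 0.93 ± 1.38 with slide as a fixed block, none past the threshold.

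Il18rap, the accessory chain of the interleukin 18 receptor, rose at 8 Gy by 1.42 ± 0.44 (adjusted p = 0.0458). Its levels were -1.78, -1.21 and -0.21 at 0 Gy, -0.09, -0.44, -1.81, 0.92 and -0.02 at 2 Gy, and -1.05, 0.43 and 1.17 at 8 Gy. Of the 8 Gy arrays, 4 of 6 lay above every 0 Gy array. The call held in only 4 of 18 fits that left out 1 array (0 Gy replicate 5, 2 Gy replicates 3 and 4, 8 Gy replicate 1); in the other 14 the adjusted p was 0.0566 to 0.102 and the change 1.22 to 1.56. A second Il18rap probe was well above background on 0 of 18 arrays.

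The antagonist Il1rn was measured at chromosome 2, 24357916 to 24357975, plus strand. Its level was -1.63, -0.96 and 1.47 at 0 Gy, 1.39, 0.58, -0.04, 2.50 and 1.45 at 2 Gy, and 0.80, 2.29 and 3.04 at 8 Gy. Of the 8 Gy arrays 5 of 6 exceeded every 0 Gy array, and 6 of 6 did once replicate 5 was set aside, when the highest 0 Gy value was -0.56. The change was 2.67 ± 0.51 (adjusted p = 0.0100, 95% interval 3.00 to 13.5-fold). The dimmer Il1rn probe, whose sequence is printed above, cleared background in 0 of 7 sham-treated mice, 0 of 5 given 2 Gy and 4 of 6 given 8 Gy. Against the limits of the 0 Gy arrays, each the dimmest signal of any probe still called present, its 8 Gy mean was 3.12-fold higher. Those limits are set over all probes and not for this one, and the 8 Gy mean includes arrays where it was not called. The 3.12-fold is therefore not a strict lower bound. The probe missed the filter and was not tested.

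The decoy Il1r2 had the widest range. Its first probe read -0.97, -0.08 and 2.61 at 0 Gy, 2.81, 1.12, 0.81, 4.82 and 3.42 at 2 Gy, and 1.81, 4.56 and 5.69 at 8 Gy. The lowest 8 Gy value was that of replicate 1, below the 2.61 of the array labelled 0 Gy replicate 5 but above the 0.04 that the other 0 Gy arrays reached. The change was 4.05 ± 0.76 (adjusted p = 0.00910, 95% interval 5.47 to 50.1-fold), the 5th largest rise among 13541 genes. Both Il1r2 and Il1rn stayed past the threshold in all 18 fits that left out 1 array, with changes of 3.75 to 4.59 for Il1r2 and 2.49 to 3.11 for Il1rn.

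At 2 Gy, 0 of 7 genes passed against 0 Gy in limma, where 0.0591% of all genes did. Of the 7, 3 had an unadjusted p under 0.05, as had 20.5% of all genes. The changes ran in the same order as at 8 Gy at the top: Il1r2 2.47 ± 0.76 (adjusted p = 0.123), Il1rn 1.81 ± 0.51 (0.109) and Il1b 1.38 ± 0.52 (0.173). Il1rap had 1.04 ± 0.59 and Il18rap 0.91 ± 0.44. The comparisons of 8 Gy and of 2 Gy with 0 Gy share their control arrays. Without the array labelled 0 Gy replicate 5, 3 of 7 genes rose at 2 Gy, where 7.19% of all genes passed: Il1r2 by 2.93 ± 0.70, Il1rn by 2.18 ± 0.43 and Il1b by 1.78 ± 0.43. Without 2 Gy replicate 3, 1 of 7 passed, Il1rn at 2.13 ± 0.51, where 1.51% of all genes did.

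Set aside that one 0 Gy array, and Il1b, Il1rn and Il1r2 separated the doses from 0 Gy completely, every one of the 6 mice given 8 Gy and of the 5 given 2 Gy reading above the 6 others. Of all genes, 6.16% did so upwards at 8 Gy and 1.99% at 2 Gy. With all 7 arrays at 0 Gy, 0 of the 7 genes did, against 0.827% and 0.177% of all genes. For Il1b, Il1rn and Il1r2 the array set aside was the highest at 0 Gy. Setting it aside with these values known therefore favours their separation. At 8 Gy without that array, 5 of 7 rose, where 22.8% of all genes passed, 15.5% higher. Il1r2 then rose by 4.59 ± 0.71 and Il1rn by 3.11 ± 0.44. Il1b rose by 2.67 ± 0.43, Il1rap by 2.32 ± 0.62 and Il18rap by 1.64 ± 0.44.

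Between the doses, 0 of 7 genes differed at 8 Gy against 2 Gy in limma, as did 0 of 13541 genes (0%). At an unadjusted p under 0.05 these counts were 0 and 422 (3.12%). For Il1r2 the difference was 1.58 ± 0.80, with an interval of 0.928 to 9.59-fold. For Il1rn it was 0.86 ± 0.54 and for Il1b 0.82 ± 0.55. The order 0, 2, 8 Gy of the group means was thus the same in Il1b, Il1rap, Il18rap, Il1rn and Il1r2, with neither step between neighbouring doses past the threshold.

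**Figure D3:**
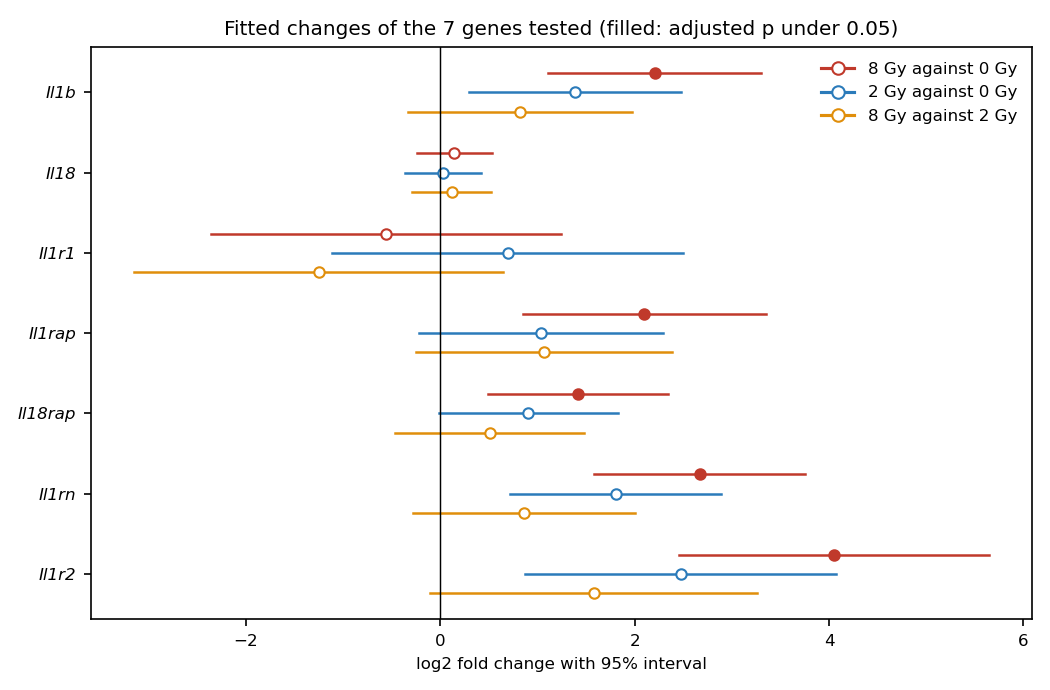
Fitted log2 fold changes with 95% intervals for the 7 genes tested, in 8 Gy against 0 Gy, 2 Gy against 0 Gy and 8 Gy against 2 Gy, with filled points where the adjusted p was under 0.05. Only the 8 Gy against 0 Gy comparison has filled points, at 5 genes, from 1.42 for Il18rap to 4.05 for Il1r2.

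Doses were spread unevenly over the 8 slides and 7 scan days. On the slide that held 8 Gy replicates 3 and 4 with 0 Gy replicate 1, the 8 Gy mean exceeded the 0 Gy array by 5.62 for Il1r2, 3.82 for Il1rn, 3.66 for Il1b, 3.66 for Il1rap and 2.53 for Il18rap. The other shared scan day held 8 Gy replicate 6 and the array labelled 0 Gy replicate 5, and there the differences were 1.99, 1.03, 0.10, 1.34 and 0.60. At 2 Gy against 0 Gy, Il1r2 differed by 1.93 and 3.51 on 2 shared slides and by -1.80 on the third, which held 2 Gy replicate 3 and 0 Gy replicate 5. On the one slide shared by 8 Gy and 2 Gy, 2 Gy replicate 4 lay above all 3 arrays at 8 Gy for Il1r2, Il1rn, Il1b, Il1rap and Il18rap, the 8 Gy mean minus that array being -1.33, -0.96, -1.14, -1.69 and -1.29. On the other shared scan day, 8 Gy replicate 6 lay above 2 Gy replicate 3 for the same genes, by 3.79, 2.54, 1.86, 2.79 and 2.20. With slide as a fixed block, 0 of 7 genes passed at 8 Gy against 0 Gy in limma, as did 0% of all genes, and 2 of 7 had an unadjusted p under 0.05, as had 8.61% of all genes. Il1r2 then changed by 3.14 ± 1.37 (adjusted p = 0.570) and Il1rn by 2.21 ± 0.94 (0.569). With scan day as a fixed block Il1r2 changed by 3.43 ± 1.13 (0.242), and 0 of 7 genes and 0% of all genes passed in limma, with 3 of 7 and 18.5% at an unadjusted p under 0.05. Outside that slide and that scan day, no batch held both doses, so dose and batch cannot be told apart there.

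Neutrophil markers moved with the same arrays. Of 19 mature neutrophil markers tested, 17 rose at 8 Gy and 0 fell (median 2.31). The 2 with the smallest p were the receptor Trem1 (2.82 ± 0.49, adjusted p = 0.00863) and Mcemp1 (2.00 ± 0.40, 0.0112). The markers' mean, relative to 0 Gy, was -0.60 to 1.68 at 0 Gy (at most 0.23 without replicate 5), 0.31 to 2.67 at 2 Gy and 1.22 to 2.92 at 8 Gy. Of 10 neutrophil precursor and granule genes 3 rose (median 0.40). Of 15 monocyte markers 0 passed (median 0.10, limma). At an unadjusted p under 0.05 there were 4, where 4488 of all 13541 genes were. Of these markers only Cx3cr1 was lower, at -0.79 ± 0.37. The others were higher, among them Lyz2 at 0.80 ± 0.27. Of 16 B cell markers 15 fell (median -3.16), with Fcer2a at -3.65 ± 0.55 and Tnfrsf13c at -4.50 ± 0.72. The part of these cell types in the interleukin 1 results was not tested.

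The members can be set against the neutrophil markers array by array. Relative to the mean of the 19 markers and to the 0 Gy mean, Il1r2 stood at 1.87 ± 0.75 at 8 Gy (SD, n = 6), with arrays from 0.47 to 2.66, against -0.47 to 0.82 at 0 Gy. Il1rn stood at 0.58 ± 0.23, from 0.25 to 0.86 at 8 Gy, against -0.43 to 0.47 at 0 Gy. Il1b, at 0.36 ± 0.38, and Il1rap, at 0.04 ± 0.61, kept closer to the markers. Il18rap was below them, at -0.85 ± 0.29, with 8 Gy arrays from -1.27 to -0.57 and 0 Gy arrays from -0.71 to 0.63. These differences, and those between members below, are a description without a test and carry no kit term. For Il1b the group means were 4.25 at 0 Gy and 6.85 at 8 Gy, while the change fitted with kit in the model was 2.21. Between members, Il1r2 gained 1.51 ± 0.78 on Il1b at 8 Gy and Il1rn gained 0.21 ± 0.26.

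**Figure D4:**
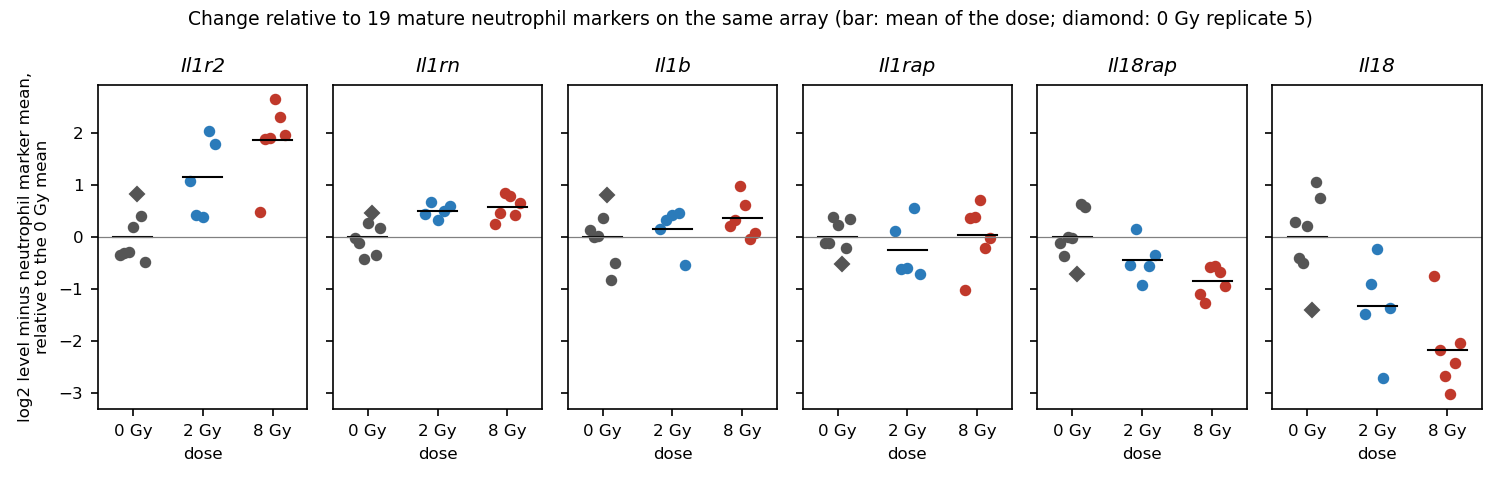
Log2 level of 6 genes minus the mean of 19 mature neutrophil markers on the same array, relative to the 0 Gy mean, by dose, 1 point per array, with bars at the dose means and a diamond for the array labelled 0 Gy replicate 5. Without a kit term, Il1r2 lies above the markers at 8 Gy (mean 1.87), Il1rn slightly so (0.58), Il1rap level with them (0.04) and Il18rap below (-0.85).

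The genes whose centred profiles lay nearest to each of 3 members over the 18 arrays were picked by the root mean square difference of log2 levels. For Il1r2 they were Scrg1 (0.48), the granule protein gene Lcn2 (0.53) and the neutrophil collagenase gene Mmp8 (0.59), where the median gene was 2.20 away. For Il1rn they were Pram1 (0.21), the formyl peptide receptor gene Fpr2 (0.25) and Dhrs9 (0.27), with a median of 1.56. For Il1b they were Chil1 (0.32), Dhrs9 (0.36) and Aatk (0.37). Among the members themselves Il1rn was the 9th nearest gene to Il1b, at 0.39, and Il1b the 50th nearest to Il1r2, at 0.96.

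Further genes of the interleukin 1 family and pathway were grouped in 5 lists. Of 4 further family ligands and antagonists tested, 2 rose at 8 Gy (median 1.31): Il36g, an epithelial and myeloid cytokine, by 2.21 ± 0.55 (adjusted p = 0.0244), and Il36b by 1.50 ± 0.42 (0.0372), with a dim probe that cleared background in 4 of the 6 mice given 8 Gy and 3 of the 7 given none. Il1f10 had 1.12 ± 0.65 and Il33 -0.22 ± 1.03, neither past the threshold.

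Of 5 further receptors and binding proteins, 1 rose and 0 fell (median 0.00). The one was Il18bp, the soluble protein that neutralises interleukin 18. Its level was -0.27, 0.41 and 0.67 (lowest, median and highest) at 8 Gy, against -1.88, -1.37 and -0.57 at 0 Gy, so the 2 doses did not overlap, even with the array labelled 0 Gy replicate 5 included. The rise was 1.62 ± 0.27, or 3.07-fold (adjusted p = 0.00863). At 2 Gy it was 1.04 ± 0.27 (adjusted p = 0.0886). The ligand Il18 was flat at both doses, as given above. Il18r1, the ligand-binding chain, had 0.28 ± 0.27, Il1rl2 -0.19 ± 0.33, and Sigirr, an inhibitory receptor of the family, -0.57 ± 0.21 (adjusted p = 0.0765).

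Of 12 genes of the inflammasome and of interleukin 1 maturation, 2 rose and 1 fell (median 0.27). Casp4, a protease that senses bacterial lipopolysaccharide in the cytosol, rose by 1.19 ± 0.32 (adjusted p = 0.0314), and Mefv, which encodes the sensor pyrin, by 1.32 ± 0.42 (0.0482). Nlrc4, an inflammasome gene, fell by 1.42 ± 0.42 (0.0407), with a dim probe that cleared background in 3 of 6 mice given 8 Gy and 6 of 7 sham-treated ones. Gsdmd, the pore former that releases interleukin 1 beta, had 0.52 ± 0.19 (0.0719). Casp1, which cuts interleukin 1 beta and interleukin 18, and the sensor Nlrp3 were picked after their values were seen, and had 0.20 ± 0.22 and 0.31 ± 0.34.

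Of 21 genes that carry the signal from the receptor, 2 rose and 0 fell (median 0.25), a share close to the 7.63% of all genes that were higher. Myd88, the adaptor shared with the Toll-like receptors, rose by 1.53 ± 0.36 (adjusted p = 0.0215), and Tollip, a negative regulator of the same complex, by 0.98 ± 0.25 (0.0260). Peli2 had 0.83 ± 0.27 and Irak4, the first kinase of the cascade, 0.95 ± 0.33, neither past the threshold. Of 12 genes of feedback and response, 3 rose and 0 fell (median 0.89). Socs3, a feedback inhibitor of cytokine signalling, read 6.90 to 7.91 at 8 Gy, against 3.51 to 6.57 at 0 Gy, without overlap, and rose by 2.30 ± 0.45 (0.0104). Icam1 and Nfkbiz rose by 1.04 ± 0.24 and 0.97 ± 0.31, while the neutrophil chemokine Cxcl2 had 2.11 ± 0.69 (0.0537), also from a dim probe, detected in 5 of 6 mice given 8 Gy and 5 of 7 sham-treated ones. At 2 Gy, 0 genes of these 5 lists passed in limma.

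**Figure D5:**
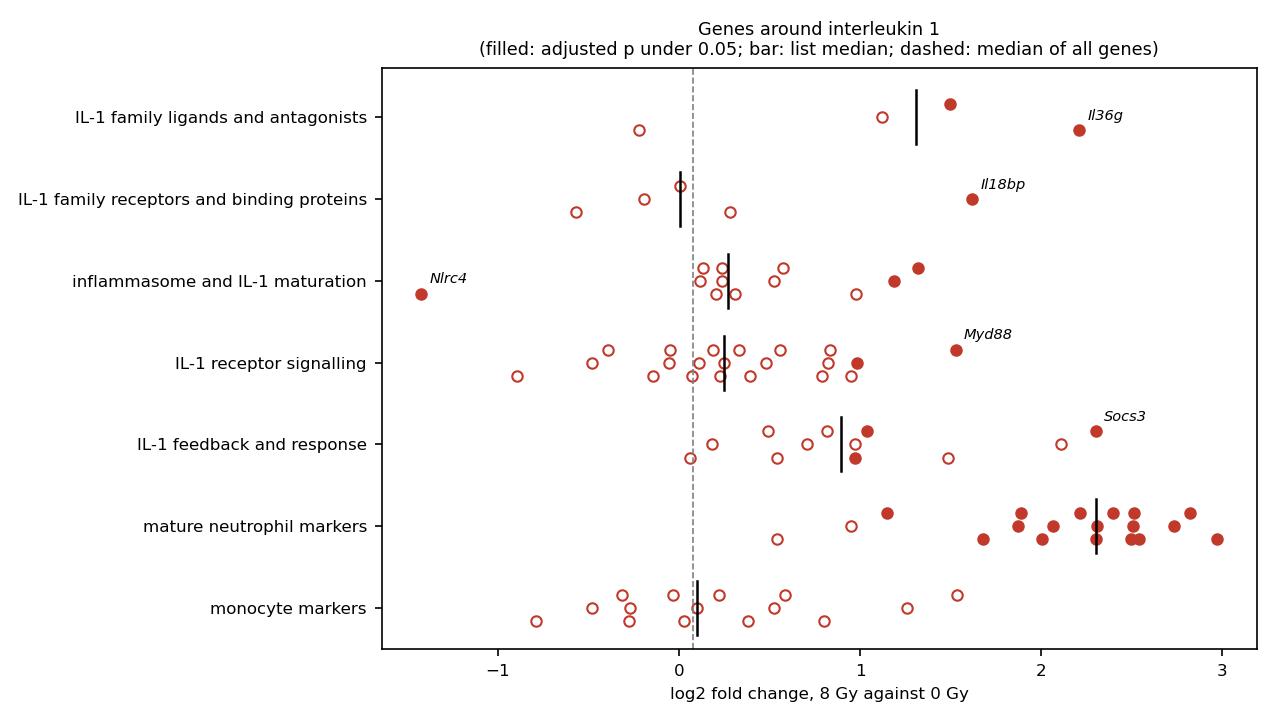
Log2 fold change at 8 Gy against 0 Gy of each tested gene in 5 interleukin 1 lists and in the mature neutrophil and monocyte lists, 1 point per gene, filled where the adjusted p was under 0.05, with a bar at the list median and a dashed line at the median of all genes (0.08). The points of the 5 pathway lists spread around medians of 0.00 to 1.31, and Il18bp stands alone among the receptors and binding proteins at 1.62.

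The extraction kits differed for 0 of the 7 genes in limma and for 3.52% of all genes. The largest difference was that of Il1b, -1.37 ± 0.59 for PAXgene against RiboPure (unadjusted p = 0.0325, adjusted p = 0.210), the one gene with an unadjusted p under 0.05. No 8 Gy sample was extracted with PAXgene. With the RiboPure arrays alone, Il1r2 and Il1rn remained past the threshold and the other 3 did not.

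Because 5 members rose together, the 250 bases before each start were searched on both strands for 6 motifs, in RefSeq sequence of build GRCm38.p6. The motifs were PU.1 (GAGGAAG), AP-1 (TGANTCA), C/EBP (TTGCNNAA), and, by name, the glucocorticoid response element, the kappaB consensus and the p53 half-site consensus. The windows of Il1r2, Il1b and Il18 held 0 matches. Those of Il18rap, Il1rn (1 of 3 starts) and Il1rap held one kind each. Other members held matches too: Il1r1, which did not pass, had a C/EBP match at -133 of one start and a kappaB match at -232 of another, and Il1a, not tested, had a PU.1 core at -41 and an AP-1 site at -12. The windows of Il18rap, Il1rn and Il1rap are printed with their matches in capitals: 2 PU.1 cores for Il18rap, whose first bases lie at -94 and -79 from the start, 1 AP-1 site for Il1rn at -141, and 1 p53 half-site for Il1rap at -235. Of 32536 windows, 10.7% held the PU.1 core, 6.73% AP-1, 7.12% the p53 half-site, 9.57% C/EBP and 7.28% kappaB. No match overlapped another, and a match describes the letters only.
Il18rap, chr1:40515112-40515361, plus strand: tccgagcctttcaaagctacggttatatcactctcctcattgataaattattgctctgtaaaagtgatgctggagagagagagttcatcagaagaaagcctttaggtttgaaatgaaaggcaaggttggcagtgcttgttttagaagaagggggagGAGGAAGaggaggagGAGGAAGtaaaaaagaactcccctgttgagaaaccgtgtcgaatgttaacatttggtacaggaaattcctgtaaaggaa
Il1rn, chr2:24336610-24336859, plus strand: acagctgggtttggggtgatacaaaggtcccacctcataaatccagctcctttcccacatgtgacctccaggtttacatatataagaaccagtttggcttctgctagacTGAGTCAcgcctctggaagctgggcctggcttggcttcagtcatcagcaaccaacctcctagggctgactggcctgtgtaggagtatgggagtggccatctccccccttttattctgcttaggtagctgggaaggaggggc
Il1rap, chr16:26581455-26581704, plus strand: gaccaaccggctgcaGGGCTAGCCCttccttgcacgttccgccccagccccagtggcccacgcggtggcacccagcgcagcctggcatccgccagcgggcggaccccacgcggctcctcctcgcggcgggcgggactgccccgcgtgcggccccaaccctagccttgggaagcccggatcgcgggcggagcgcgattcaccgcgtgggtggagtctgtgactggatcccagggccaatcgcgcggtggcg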

How the data were processed

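RNA of 18 blood samples was measured on 1-colour Agilent arrays. Per the file headers, the processed signal intensity was made with Agilent Feature Extraction 9.5.3.1. The submitters' processing notes name limma without its step. Spots of a probe were averaged as log2, 45 values marked as outliers were left out, and each array's 75th percentile was subtracted. The brightest of a gene's probes past the filter stood for it. In limma 3.58.1 (R 4.3.3, statmod 1.5.0), after a test on simulated data, the log2 levels of the 18 arrays were modelled on dose and kit. For 8 Gy against 0 Gy, that test recovered 34% of 100 simulated log2 changes of size 1 and 81% of 100 of size 2. It also called 6 unchanged genes. Smaller changes that did not pass may thus have been missed. Tests were 2-sided, with Benjamini-Hochberg adjustment over 13541 genes and a threshold of 0.05. Errors beside changes are SE. The number of arrays limits the precision, and the series' design text calls the 18 samples biologically distinct; that each is 1 mouse is not stated there.

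The deposited table of the series holds intensities on a linear scale with a median of 20.7 in each column. It was used as an alternative, and its normalization steps are not given in the sources used here. Alternatives comprised 16 planned settings, each array left out in turn and 1 setting added later.

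The members and the gene lists (5 pathway lists, 9 cell marker lists and p53 targets) were chosen with earlier results of these data known. Beside the lists in the text, at 8 Gy 12 of 12 p53 targets rose, 4 of 13 platelet markers rose, 2 of 20 T cell and 1 of 6 eosinophil, basophil and mast cell markers fell, and 0 of 14 NK cell and 0 of 14 erythroid markers passed in limma (2 and 7 at an unadjusted p under 0.05). Of all 13541 genes, 4488 had an unadjusted p under 0.05 in this comparison of 8 Gy with 0 Gy. By rule, genes named were all members, up to 4 genes of each pathway list and 2 of each marker list described in the text with the smallest p at 8 Gy against 0 Gy, 3 nearest genes to Il1r2, Il1rn and Il1b, and Cdkn1a; a gene that this rule picks among the monocyte markers is not reported here. Outside the rule, Casp1, Nlrp3, Cx3cr1 and Elane were named after their values were seen. List scores are means of log2 levels relative to the 0 Gy mean. Probes are placed on mm7, as in the files.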

Additional observations from a re-analysis of the deposited data

Results flagged for a closer look

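In 21 sets of arrays (7 genes at 3 doses), 4 held an array far from its group, where chance would give about 1 in 20 for independent sets. The genes share their arrays, so the sets are not independent and an excess cannot be judged from this rate. The array labelled 0 Gy replicate 5 was far above the others for Il1b (6.74, next highest 4.47), Il1rn (1.47, next -0.56) and Il1r2 (2.61, next 0.04). For Il1r1, 2 Gy replicate 3 was at 0.65, with the next highest at -3.17.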

How the results depend on the processing

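At 8 Gy against 0 Gy, Il1r2 and Il1rn stayed past the threshold in 32 of 35 other settings, Il1b in 26, Il1rap in 15 and Il18rap in 11, and each kept its sign in 35 of 35. Members past the threshold, 5 of 7, numbered 3 with no filter on dim probes, 3 with slide and 3 with scan day as a random block, 2 with RiboPure arrays alone and 2 with the replicate block. They numbered 0 in limma with slide as a fixed block, scan day as a fixed block or array brightness as a covariate (2, 3 and 5 at an unadjusted p under 0.05). Genes past the threshold, 1629, numbered 589 with no filter, 293 with RiboPure arrays, 624 and 867 with slide and scan day as random blocks, 244 with the replicate block, and 0 with slide or scan day fixed or with brightness (1166, 2508 and 1838 unadjusted). Leaving out 1 array gave 280 to 3086 genes and 2 to 5 members; the members fell to 2 without 0 Gy replicate 1 or 2 or 8 Gy replicate 4, and to 3 without 0 Gy replicate 3, 4 or 7, 2 Gy replicate 5 or 8 Gy replicate 2, 3, 5 or 6. At 2 Gy, 8 genes passed, against 41 with quantile normalization, 53 with normexp background, 5 with the filter at 9 arrays, 68 with the replicate block and 19 with every probe on its own. There were 0 with no filter, RiboPure arrays, slide or scan day fixed, or brightness (5844, 1646, 1823, 1879 and 831 unadjusted). Leaving out 1 array gave 0 to 973 genes and 0 to 3 members at 2 Gy. At 8 Gy against 2 Gy, 0 genes and 0 members passed in every setting. The cause was not tested. Of the calls at 8 Gy, 63.4% were higher, but 45.5% after quantile scaling, 45.1% in the table the authors deposited and 44.8% under normexp. Same-numbered arrays of different doses were not treated as pairs in the main fit. Their deviations correlated at -0.34 to 0.48 (median 0.10) over 16 pairs, 8 of them over 0.1. Over 91 pairs with different numbers the correlations were -0.52 to 0.69 (median -0.02), 27 of them over 0.1. Whether the numbers mark a pairing was not tested. Dim signal limits Il1a and Il1r1.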
